A study of Homo sapiens with 9 samples.

Results

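The genes described here are the 85 long intergenic RNAs named LINC followed by digits that were expressed in 3 breast cancer cell lines. They were chosen from 977 such rows among 58037 genes in a table of RPKM (reads scaled to transcript length and library size). A row was a member where its RPKM was at least 1 in 3 or more of 9 libraries, so measured values chose the members and their being detected is not a finding. The same filter left 12965 genes of all kinds for testing, which is 22.3% of the table, against 8.7% of the LINC rows. Of the 892 LINC rows outside, 299 were at 0 in all 9 libraries, 562 were above 0 but never reached 1 RPKM, and 31 reached it in 1 or 2 libraries. Just inside the rule, by their third-highest value, were LINC00944 at 1.0, LINC00886 at 1.01 and LINC01124 at 1.02 RPKM. Just outside were LINC00520 at 0.981, LINC01089 at 0.961 and LINC01315 at 0.953 RPKM.

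Total RNA was sequenced from MDA-MB-436, MDA-MB-231 and MDA-MB-453, established human lines studied as triple-negative breast cancer. Each line was grown in DMEM with serum and sequenced once as a control, once with GSK343 and once with shEZH2, which gave 3 libraries per group and 9 in all. GSK343 is a small-molecule inhibitor of the histone methyltransferase EZH2, and shEZH2 is a short hairpin RNA against the EZH2 transcript, so the design asks how expression differs when EZH2 is inhibited or knocked down. The sources used here give no doses or times, the protocol speaks of transduction for both interventions, and the controls are untreated by their labels but headed shControl in the table.

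Long intergenic noncoding RNAs are transcribed by RNA polymerase II from their own promoters, spliced and polyadenylated, and many are made in few cell types. A LINC name marks a gene that was first annotated as noncoding. Some of these genes are now known to encode short proteins. EZH2 is the catalytic subunit of Polycomb repressive complex 2, which methylates lysine 27 of histone H3 at silent genes and at many promoters rich in CpG. The members' label was checked against GENCODE release 29, in which 84 of the 85 were located. There, 62 were typed lincRNA, 8 processed transcript, 5 antisense, 3 transcribed pseudogene and 1 bidirectional promoter RNA. The other 5 were typed protein-coding, namely LINC01420 (NBDY), LINC00493 (SMIM26), LINC00998 (SMIM30), LINC00116 (MTLN) and LINC00094 (BRD3OS), so the name covers more than intergenic noncoding RNA. Exons of 27 members overlapped an exon on the opposite strand and those of 13 overlapped another gene on the same strand. The sources used here do not say whether the counting used strand, which leaves the values of those members uncertain.

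Promoter windows are shown for members whose results are described below, 8 that rose and LINC00704, which fell. They were chosen after their values and motifs were seen. Windows run from 250 bases before to 50 bases after the start in RefSeq (GRCh38.p14). Capitals mark TGAGTCA (the AP-1 site) and TATAAA (the TATA box, TTTATA where it lies on the other strand), and in the LINC01278 window also CACGTG (an E-box). A window wholly in lower case holds none of these.
LINC00973, chr3:98980805-98981104, plus strand: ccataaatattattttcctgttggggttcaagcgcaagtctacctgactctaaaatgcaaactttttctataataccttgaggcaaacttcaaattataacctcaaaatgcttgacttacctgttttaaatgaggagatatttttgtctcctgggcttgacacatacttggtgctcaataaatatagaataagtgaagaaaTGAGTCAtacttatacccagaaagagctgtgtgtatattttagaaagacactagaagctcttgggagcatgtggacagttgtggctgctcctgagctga
LINC01589, chr22:45605598-45605897, minus strand: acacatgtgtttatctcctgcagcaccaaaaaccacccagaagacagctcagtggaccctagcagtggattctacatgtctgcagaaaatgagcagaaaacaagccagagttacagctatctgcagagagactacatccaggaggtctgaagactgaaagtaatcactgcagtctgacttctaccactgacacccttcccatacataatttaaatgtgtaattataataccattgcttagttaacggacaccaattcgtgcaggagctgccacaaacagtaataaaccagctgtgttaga
LINC01537, chr11:72570406-72570705, plus strand: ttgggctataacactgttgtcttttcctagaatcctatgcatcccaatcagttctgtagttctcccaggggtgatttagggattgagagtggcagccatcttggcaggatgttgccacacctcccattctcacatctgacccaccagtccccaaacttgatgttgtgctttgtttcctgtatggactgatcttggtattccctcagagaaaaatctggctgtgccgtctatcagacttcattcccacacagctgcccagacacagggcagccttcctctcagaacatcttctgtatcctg
LINC01137 (LITATS1), chr1:37474394-37474693, minus strand: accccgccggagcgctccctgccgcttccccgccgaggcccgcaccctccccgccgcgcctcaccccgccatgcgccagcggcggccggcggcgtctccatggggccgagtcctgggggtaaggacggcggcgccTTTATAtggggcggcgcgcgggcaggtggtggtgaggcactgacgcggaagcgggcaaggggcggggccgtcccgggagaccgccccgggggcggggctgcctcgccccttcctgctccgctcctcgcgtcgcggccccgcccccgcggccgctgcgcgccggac
LINC00324, chr17:8223994-8224293, minus strand: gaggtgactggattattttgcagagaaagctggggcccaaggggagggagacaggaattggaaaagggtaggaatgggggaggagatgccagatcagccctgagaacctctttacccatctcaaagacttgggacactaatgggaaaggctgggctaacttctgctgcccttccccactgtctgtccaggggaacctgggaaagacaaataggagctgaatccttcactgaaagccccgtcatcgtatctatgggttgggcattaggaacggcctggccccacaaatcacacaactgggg
LINC00601, chr10:126421830-126422129, minus strand: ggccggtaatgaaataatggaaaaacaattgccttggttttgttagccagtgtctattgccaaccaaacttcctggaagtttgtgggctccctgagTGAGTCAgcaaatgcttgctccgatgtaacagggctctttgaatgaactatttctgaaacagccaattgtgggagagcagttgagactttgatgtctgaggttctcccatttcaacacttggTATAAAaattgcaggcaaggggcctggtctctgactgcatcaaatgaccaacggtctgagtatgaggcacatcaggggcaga
LINC01173, chr2:234682418-234682717, plus strand: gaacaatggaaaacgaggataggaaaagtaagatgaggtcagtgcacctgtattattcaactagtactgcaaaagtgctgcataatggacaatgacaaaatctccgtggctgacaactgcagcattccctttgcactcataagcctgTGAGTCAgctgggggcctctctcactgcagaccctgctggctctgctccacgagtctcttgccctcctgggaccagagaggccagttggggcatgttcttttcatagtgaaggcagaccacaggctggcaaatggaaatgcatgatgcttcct
LINC01278, chrX:63561046-63561345, minus strand: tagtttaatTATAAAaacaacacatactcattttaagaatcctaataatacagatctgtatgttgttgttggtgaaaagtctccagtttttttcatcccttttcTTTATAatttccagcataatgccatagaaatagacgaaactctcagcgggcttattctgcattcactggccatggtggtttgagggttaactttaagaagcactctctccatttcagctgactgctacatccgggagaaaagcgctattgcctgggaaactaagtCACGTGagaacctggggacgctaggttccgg
LINC00704 (MANCR), chr10:4678021-4678320, minus strand: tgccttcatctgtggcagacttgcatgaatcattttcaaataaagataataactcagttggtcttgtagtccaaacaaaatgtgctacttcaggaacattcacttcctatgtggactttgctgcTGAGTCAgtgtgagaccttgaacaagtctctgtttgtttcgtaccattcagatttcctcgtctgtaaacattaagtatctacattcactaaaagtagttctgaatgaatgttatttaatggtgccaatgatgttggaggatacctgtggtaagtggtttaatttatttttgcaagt
TGAGTCA was in the windows of LINC00973, LINC00601 and LINC01173, which rose, and of LINC00704, which fell. Of the 14 risen members that had a window, these first 3 held it and the other 11 did not. LINC01589, LINC01537 and LINC00324, which also rose, had none of the 3 motifs. The LINC01137 window also contains the start of the divergent gene ZC3H12A and is rich in CpG, with 47 CpG in 300 bases against 1 in the LINC00973 window.

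Over all members, 72 matched a RefSeq promoter entry and 62 had a window whose start lay within 1000 bases of the GENCODE start. TGAGTCA was in the windows of 9 of these 62 (14.5%) and in 4.95% of all 35116 windows. TATAAA was in 6 (9.68%, against 11.5% of all windows), TGACGTCA, the cyclic AMP response element, in 2 (3.23%, against 1.85%), and CACGTG in 4 (6.45%, against 7.26%). CCAAT was in 27 (43.5%, against 34.6%) and GGGCGG, the GC box, in 34 (54.8%, against 45%). All motifs were searched as exact letters on both strands, and none of these motifs contains another. The median GC share was 61.7% in members and 58.7% in all windows, and the median ratio of observed to expected CpG was 0.697 against 0.579. Of the 14 members that rose under both interventions and had a window, 4 had a CpG ratio of at least 0.6. Of all 62, which include these 14, 34 did (54.8%, against 48.9% of all windows). A match to a motif describes the letters only.

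The libraries were checked before the results. RPKM values corresponded to between 14757000 and 18284000 reads per library, and for the 68 members with the same identifier version in GENCODE 29 a value of 1 RPKM stood for 37.1 reads in the median, from 4.88 to 241. EZH2 went against the labels: it had 27.4, 5.77 and 16.4 RPKM in the control, GSK343 and shEZH2 libraries of MDA-MB-231, 38.9, 7.53 and 37.4 in MDA-MB-436 and 42.3, 7.99 and 16.2 in MDA-MB-453, so it was lowest under the inhibitor's label and nearly as high as the control in the shEZH2 library of MDA-MB-436. The groups are therefore called libraries labelled GSK343 or shEZH2. Whether these labels are exchanged was not tested, and if they are, every value under one label belongs to the other. The libraries labelled MDA-MB-453 stood between the other lines for most genes that differ between those lines, and 0 of 18 luminal breast genes was highest in them in all 3 conditions. This was not particular to luminal genes, as 0 of 15 mesenchymal or basal-like genes and 0 of 8 genes of other cells were highest there either. Calls against control are therefore also given without these libraries. Among genes that differed at least 2-fold between MDA-MB-231 and MDA-MB-436, the level in MDA-MB-453 lay between them for 90.4% in controls, 98% under GSK343 and 98.9% under shEZH2. For members of that kind it did so for 28 of 28, 34 of 34 and 34 of 35. Whether these libraries are independent of the other lines was not tested, and if they are not, p-values that include them are too small.

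Most members were weakly expressed. Their mean RPKM over the 9 libraries had a median of 1.70 and ran from 0.609 to 23.7, with 48 members under 2 RPKM, 20 from 2 to under 5, 13 from 5 to under 10 and 4 at 10 or more. Together they held 236 to 362 RPKM per library, which was 0.0818% to 0.121% of the summed RPKM. That sum was lowest in the control in each line: it was 271, 362 and 287 in the control, GSK343 and shEZH2 libraries of MDA-MB-231. The corresponding sums were 236, 281 and 269 in MDA-MB-436 and 246, 301 and 294 in MDA-MB-453. The gap between 271 and 287 in MDA-MB-231 is about that of LINC00973 alone, which had 18.5 and 34.8 RPKM there. Members that entered through the targeted libraries, counted below, also add to this order, so the sums do not show a rise shared by the members. In bulk RNA, fewer cells that make a transcript and less transcript per cell cannot be told apart. Of the members, 30 were at 1 RPKM or more in all 9 libraries (35.3%, against 74.7% of all genes tested), 38 in libraries of exactly 2 lines (against 14% of all genes) and 2 in a single line (against 1.17%).

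**Figure D1:**
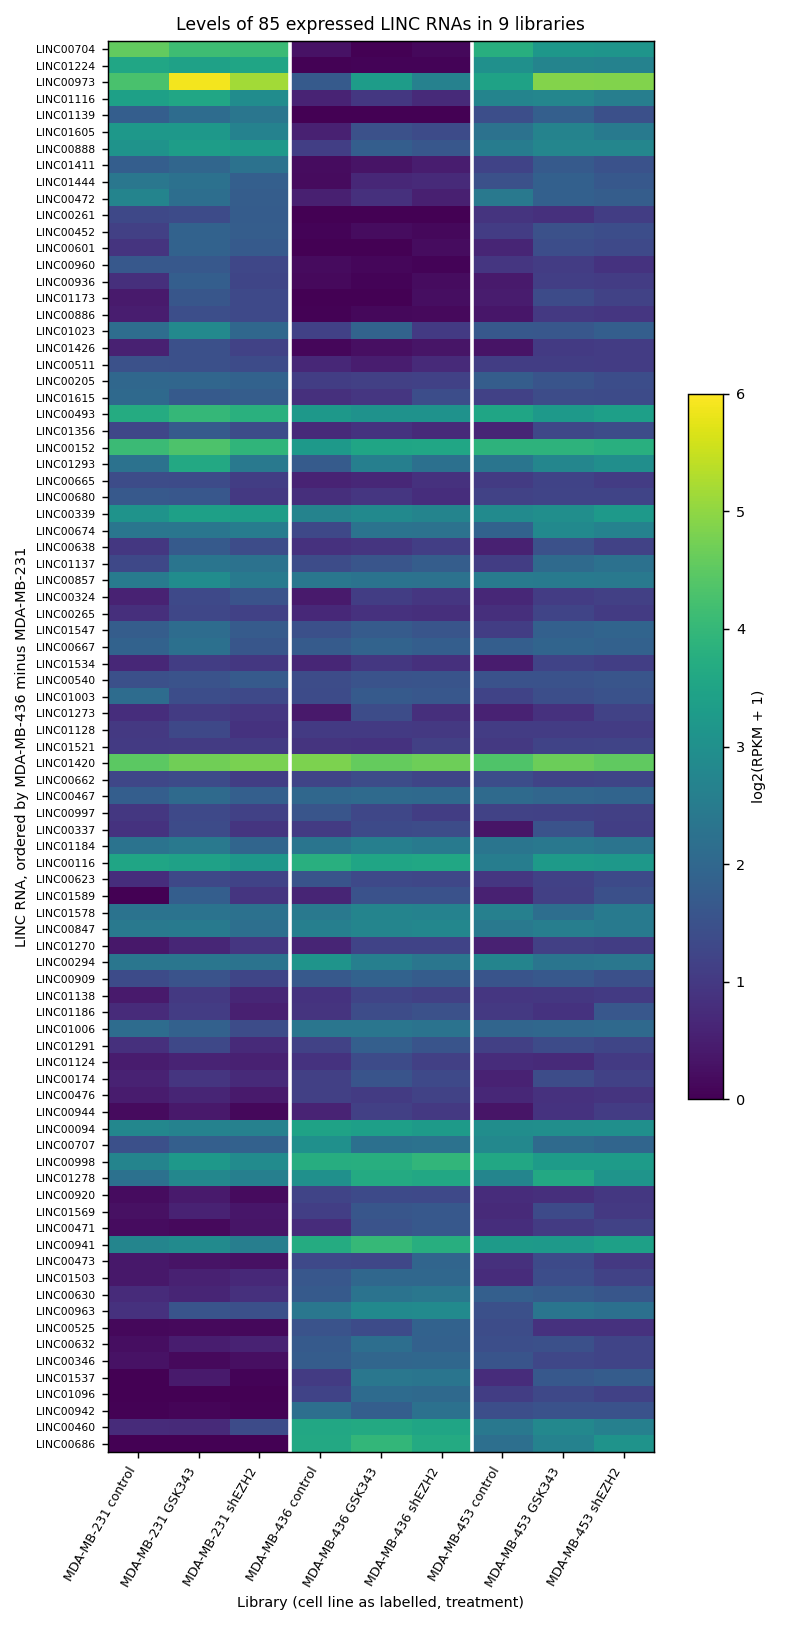
Levels of the 85 members as log2(RPKM + 1), 1 row per LINC RNA and 1 column per library, with rows ordered by the difference between MDA-MB-436 and MDA-MB-231 and white lines between cell lines. Rows at the top are bright in MDA-MB-231 and dark in MDA-MB-436, rows at the bottom the reverse, and the MDA-MB-453 columns lie between them.

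The most abundant member encodes a short protein. LINC01420, which encodes the P-body microprotein NoBody, had 21.6, 24.9 and 26.7 RPKM in the control, GSK343 and shEZH2 libraries of MDA-MB-231, 27.2, 22.8 and 24.5 in MDA-MB-436 and 19.3, 24.1 and 22.1 in MDA-MB-453. Its libraries overlapped across treatments and lines, and no contrast passed (log2 fold change 0.10 ± 0.28 for both interventions, half-width of the 95% interval, limma adjusted p = 0.624). LINC00116, whose product mitoregulin is a mitochondrial inner membrane protein, averaged 9.34 RPKM, and LINC00493 and LINC00998, which encode small membrane proteins, averaged 10.2 and 9.80 RPKM. Those 3 did not pass for either intervention. Of the 10 most abundant members 4 are thus typed protein-coding, and the fifth of that type, LINC00094, averaged 7.20 RPKM.

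The remaining 6 of the 10 were LINC00973, LINC00152, LINC00704, LINC00941, LINC01278 and LINC00339. LINC00152 (CYTOR) had 15.9, 18.98 and 14.2 RPKM in MDA-MB-231, 8.45, 10.6 and 10.6 in MDA-MB-436 and 13.6, 13.7 and 12.9 in MDA-MB-453. It was higher in each MDA-MB-231 library than in each MDA-MB-436 library, but it has a near-identical copy in MIR4435-2HG, so its level is uncertain. LINC00941 averaged 9.22 RPKM and LINC00339 averaged 7.21 RPKM. Both overlap another annotated gene on their own strand, so their levels are uncertain as well.

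Between MDA-MB-231 and MDA-MB-436 the members differed widely. In limma, 59 of 85 passed an adjusted p of 0.05, 29 higher and 30 lower in MDA-MB-436, while 63.4% of all genes tested passed, 34.8% higher and 28.6% lower. The share of members is near that background. Since 1 line holds 3 libraries, a member could enter through a single line, and 2 of the 29 did (LINC00476 and LINC00920). These line tests compare 3 libraries per line that differ in treatment, so their p measures how far the line difference varies over treatments.

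LINC00704 differed most. This RNA is also called MANCR, for mitotically associated long noncoding RNA, and lies at chr10:4650185-4678154 on the minus strand (ENSG00000231298.6). It had 22.7, 16.7 and 16.1 RPKM in the control, GSK343 and shEZH2 libraries of MDA-MB-231, but 0.217, 0 and 0.0878 in MDA-MB-436, where 0 to 7 reads were counted. MDA-MB-453 had 12.7, 7.98 and 7.80 RPKM, between the other lines and nearer MDA-MB-231. The log2 difference between MDA-MB-436 and MDA-MB-231 was -4.14 ± 0.31 (adjusted p = 5.69e-10). Its exons overlap LINC00705 on the opposite strand.

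Other RNAs were also higher in MDA-MB-231, and some of them were close to absent from MDA-MB-436. LINC01224 had 9.79 to 10.7 RPKM in MDA-MB-231 and 0.0181 to 0.0366 in MDA-MB-436 (log2 difference -3.46 ± 0.31, adjusted p = 2.31e-09). LINC01116 had 6.56 to 10.7 RPKM against 0.501 to 0.948 (-2.54 ± 0.34, adjusted p = 6.28e-08). LINC00973, described further on, was also lower in MDA-MB-436 (-2.57 ± 0.35, adjusted p = 8e-08). LINC01139, known as LINK-A and described in triple-negative breast cancer, had 2.45, 3.35 and 4.13 RPKM in MDA-MB-231 and 0 in all 3 MDA-MB-436 libraries. LINC00261, which neighbours the endoderm factor gene FOXA2, was likewise at 0 in MDA-MB-436 and had 1.48, 1.60 and 2.33 RPKM in MDA-MB-231. Against the level that 3 reads per library would give (0.0326 RPKM), LINC00261 was at least 55.4-fold higher in MDA-MB-231. No library of the 2 lines overlapped for LINC01224, LINC01116, LINC01139 or LINC00261.

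The reverse pattern was led by LINC00686. It was at 0 in all 3 MDA-MB-231 libraries and had 11.3, 14.7 and 11.7 RPKM in the control, GSK343 and shEZH2 libraries of MDA-MB-436. That is at least 20.5-fold higher, against the 0.612 RPKM that 3 reads per library give for this gene. LINC01096 was at 0 in MDA-MB-231 as well and had 1.32, 3.30 and 3.11 RPKM in MDA-MB-436, at least 16.0-fold higher. LINC00460 had 0.673, 0.647 and 1.57 RPKM in MDA-MB-231 and 11.1, 11.4 and 10.5 in MDA-MB-436 (log2 difference 2.65 ± 0.38, adjusted p = 1.39e-07). LINC00942 had at most 0.0561 RPKM in MDA-MB-231 and 2.47 to 3.72 in MDA-MB-436 (2.03 ± 0.33, adjusted p = 3.85e-07). LINC01537 completed the 5 with the largest difference (1.75 ± 0.45, adjusted p = 1.63e-05), and the lines did not overlap for any of the 5.

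The libraries labelled MDA-MB-453 gave no member a level of its own among these. LINC00686 was at 3.55, 5.30 and 7.43 RPKM there, LINC00460 at 4.31, 5.94 and 5.12, and LINC01224 at 7.12, 5.48 and 5.33, in each case between the other lines. Against MDA-MB-231, 30 members passed, 18 higher and 12 lower, against 31.3% of all genes (20.1% higher and 11.2% lower). Against MDA-MB-436, 35 passed, 21 higher and 14 lower, against 34.7% of all genes (18.6% higher and 16.1% lower). The largest differences from MDA-MB-231 belonged to LINC00686 (2.64 ± 0.40, adjusted p = 1.15e-06) and LINC00704 (-0.91 ± 0.31, adjusted p = 0.000731). From MDA-MB-436 the largest were again those of LINC00704 (3.22 ± 0.31, adjusted p = 1.6e-08) and LINC00686 (-1.11 ± 0.40, adjusted p = 0.000893). LINC01503 (-0.75 ± 0.32, adjusted p = 0.00241) and LINC00963 (-0.70 ± 0.30, adjusted p = 0.00287) were also lower in MDA-MB-453 than in MDA-MB-436. Over all members the MDA-MB-453 level lay between the other lines for 60 in controls, 65 under GSK343 and 68 under shEZH2, against 46.9%, 73.7% and 82.9% of all genes.

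**Figure D2:**
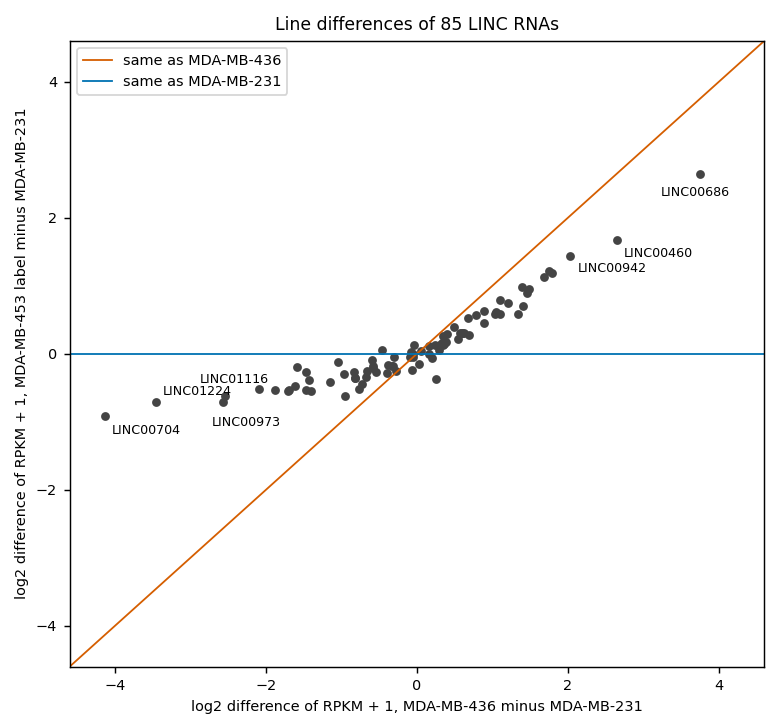
Line differences of the 85 members on the log2(RPKM + 1) scale, averaged over treatments: MDA-MB-436 minus MDA-MB-231 on the x axis, the libraries labelled MDA-MB-453 minus MDA-MB-231 on the y axis, 1 point per LINC RNA. Most points lie between the blue line (equal to MDA-MB-231) and the orange line (equal to MDA-MB-436), with LINC00704 at -4.14 and LINC00686 at 3.75 on the x axis.

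Within lines, more members were higher than lower in the targeted libraries. Compared with control over both interventions together, 19 of 85 members passed, 18 of them higher and 1 lower. Of all genes tested, 16.5% passed, 12.2% higher and 4.3% lower. The median log2 fold change of the members was 0.18, against 0.05 over all genes tested. Under the GSK343 label 8 members passed, all higher, against 7.85% of all genes (6.25% higher and 1.6% lower). Under the shEZH2 label 7 passed, all higher, against 10.6% of all genes (8.35% higher and 2.28% lower). These 2 comparisons share the 3 control libraries. All 6 targeted libraries were above the control of their line for 25 members (19.4% of all genes) and all 6 were below it for 1 (10.5% of all genes).

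The rule for members bears on these counts. Of the members, 17 were at 1 RPKM or more in no control library (20%, against 3.18% of all genes), so they entered through the targeted libraries and had to be higher there. Of those 17, 9 passed higher, which is 52.9%, and among all 412 genes that entered in this way 52.4% did. LINC01589, LINC00324, LINC01173, LINC00601 and LINC01270, described below, are among those 9. Among the 31 members at 1 RPKM or more in all 3 controls, 5 passed higher (16.1%, against 9.7% of such genes) and 0 lower (against 5.28%). Among the 68 members with a mean RPKM under 5, 15 passed higher, which is 22.1%, against 13.4% of all genes at that level. Without the 3 libraries labelled MDA-MB-453 only LINC00973 passed for both interventions, 1 member passed under GSK343 and 0 passed under shEZH2. Without the MDA-MB-453 control library alone, 4 members passed for both interventions, 1 under GSK343 and 1 under shEZH2.

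**Figure D3:**
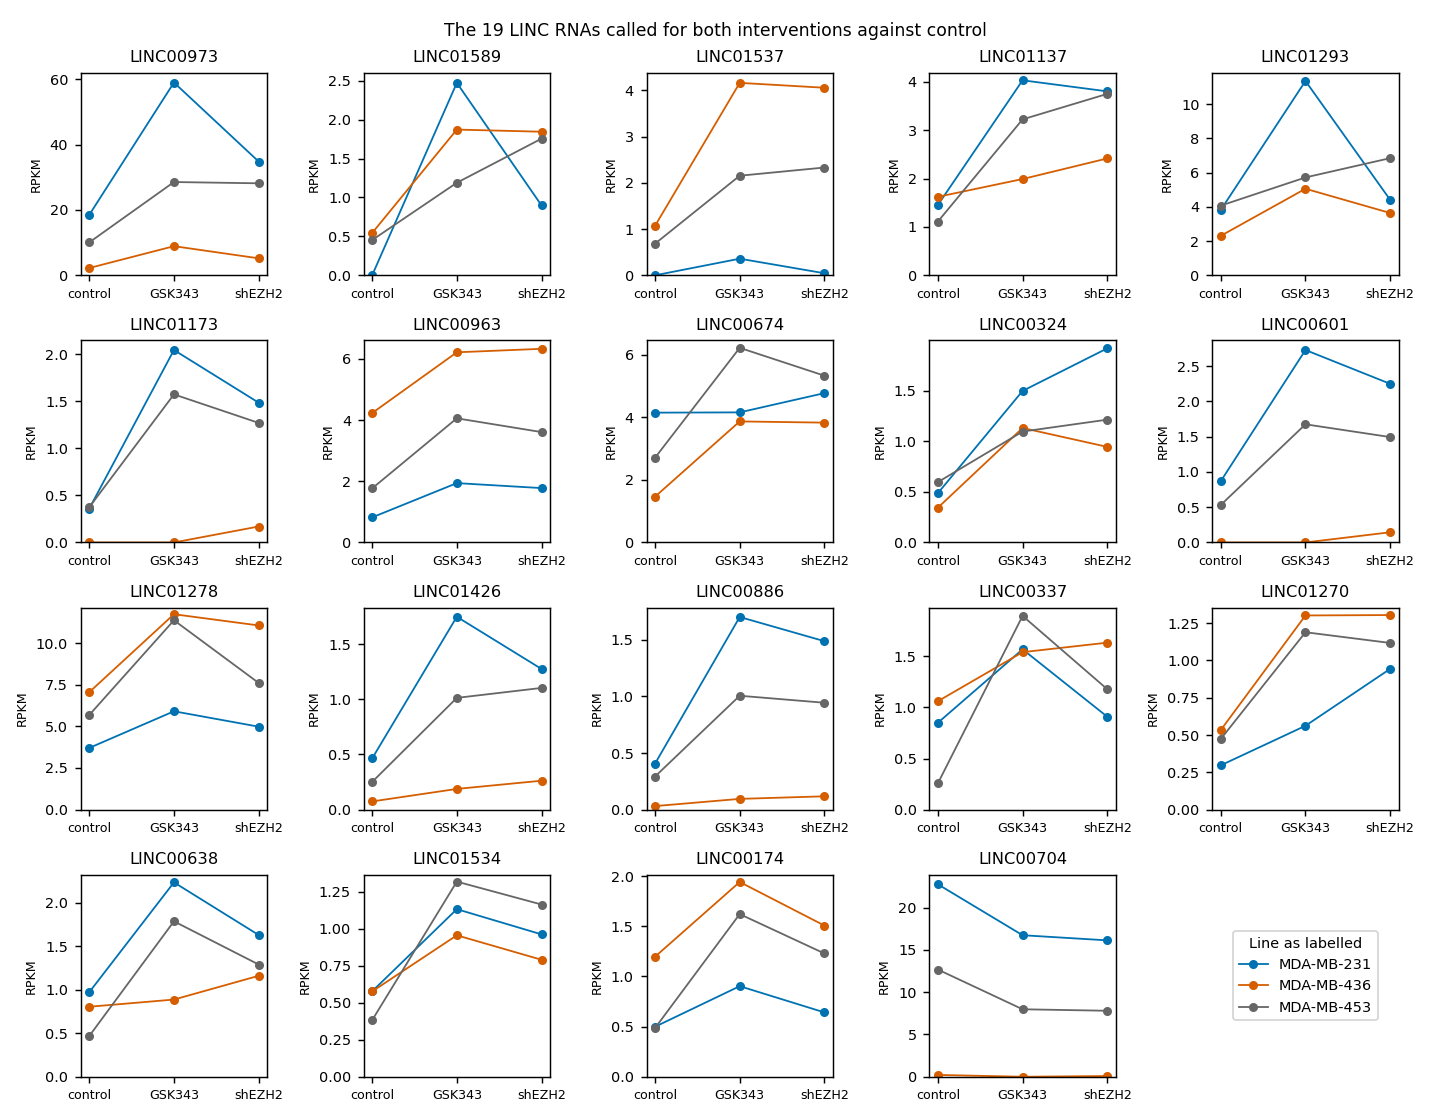
RPKM of the 19 members that passed for both interventions against control, 1 panel per LINC RNA with its own axis from 0, in the control, GSK343 and shEZH2 libraries, with 1 line of points per cell line. LINC00973 rises from 18.5 to 59.0 RPKM in MDA-MB-231 under GSK343, and LINC00704, in the last panel, is the one RNA that is lower.

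LINC00973 rose most, and in every line. It lies at chr3:98981058-98983096 on the plus strand (ENSG00000240476.1), and its nearest protein-coding start, that of DCBLD2, is 79369 bases away. In MDA-MB-231 it had 18.5 RPKM in the control, 59.0 under GSK343 and 34.8 under shEZH2, from 298, 837 and 612 reads. In MDA-MB-436 the values were 2.23, 8.91 and 5.20 RPKM, and in MDA-MB-453 they were 10.1, 28.5 and 28.1. Each targeted library was above the control of its own line, while the groups overlapped across lines because MDA-MB-231 stood above MDA-MB-436 throughout. The control mean was 10.3 ± 8.13 (SD, n = 3), against 32.1 ± 25.2 under GSK343 and 22.7 ± 15.5 under shEZH2. Within lines it was 2.48-fold higher for both interventions on the scale of RPKM + 1 (log2 1.31 ± 0.30, adjusted p = 0.000308), 1.55 ± 0.35 under GSK343 (adjusted p = 0.000498) and 1.07 ± 0.35 under shEZH2 (adjusted p = 0.00323). Leaving out any 1 library kept all of these calls, with values for both interventions from 1.21 to 1.39. Without all MDA-MB-453 libraries the value for both interventions was 1.26 (adjusted p = 0.0176) and that for shEZH2, 0.909, no longer passed (adjusted p = 0.0665).

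Further RNAs rose from levels under 1 RPKM in the controls. LINC01589, an RNA typed antisense at chr22:45604432-45605621, had 0 reads in the MDA-MB-231 control, which allows up to 0.327 RPKM, and 2.47 and 0.898 RPKM under GSK343 and shEZH2. It went from 0.544 to 1.87 and 1.85 RPKM in MDA-MB-436, and from 0.453 to 1.19 and 1.76 in MDA-MB-453. Every targeted library was above every control library (log2 1.0 ± 0.41 for both interventions, adjusted p = 0.00584), although the counts behind these values were 0 to 20 reads. LINC00324, at chr17:8220642-8224043, had 0.487, 1.5 and 1.92 RPKM in the control, GSK343 and shEZH2 libraries of MDA-MB-231. It had 0.343, 1.13 and 0.944 in MDA-MB-436 and 0.596, 1.10 and 1.21 in MDA-MB-453. Its groups did not overlap either, as the highest control was 0.596 and the lowest targeted library 0.944 (0.63 ± 0.29, adjusted p = 0.00943). Both RNAs were under 1 RPKM in every control and entered through the targeted libraries, so the rule fixed part of this separation. Without the MDA-MB-453 libraries neither passed, at 1.12 (adjusted p = 0.066) and 0.73 (adjusted p = 0.0868).

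LINC01537 rose mainly in MDA-MB-436 and in the libraries labelled MDA-MB-453. Its RPKM was 1.07, 4.16 and 4.06 in the control, GSK343 and shEZH2 libraries of MDA-MB-436 and 0.684, 2.15 and 2.33 in MDA-MB-453. The MDA-MB-231 libraries held 0, 0.360 and 0.0446 RPKM, from 0, 13 and 2 reads. The log2 fold change for both interventions was 0.83 ± 0.39 (adjusted p = 0.0103), 0.89 ± 0.45 under GSK343 and 0.78 ± 0.45 under shEZH2, each past the threshold. The call for both ended without either of 2 single libraries, and the calls under GSK343 and under shEZH2 each ended without any of 5. LINC00674, typed as a transcribed pseudogene, also moved less in MDA-MB-231, with 4.15, 4.15 and 4.77 RPKM in MDA-MB-231 against 1.46, 3.87 and 3.83 in MDA-MB-436 and 2.71, 6.22 and 5.33 in MDA-MB-453. It passed for both interventions together (0.64 ± 0.36, adjusted p = 0.0234) and for neither alone. That call ended without any of 3 single libraries. Without the MDA-MB-453 libraries neither passed (0.779, adjusted p = 0.153, and 0.531, adjusted p = 0.218). The F-test between lines, described further on, passed for neither.

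LINC01173 and LINC00601 rose in MDA-MB-231 and in the libraries labelled MDA-MB-453. Both entered through the targeted libraries, so the rule asked for higher values there. LINC01173 had 0.361, 2.05 and 1.49 RPKM in MDA-MB-231 and 0.375, 1.58 and 1.27 in MDA-MB-453, but 0, 0 and 0.170 in MDA-MB-436. No library of LINC01173 held more than 10 reads. LINC00601 had 0.868, 2.73 and 2.25 RPKM in MDA-MB-231, 0.531, 1.67 and 1.49 in MDA-MB-453, and 0, 0 and 0.144 in MDA-MB-436. The log2 fold changes for both interventions were 0.65 ± 0.37 (adjusted p = 0.0256) and 0.58 ± 0.35 (adjusted p = 0.0294), and neither RNA passed for 1 intervention alone. The call of LINC01173 ended without any of 5 single libraries and that of LINC00601 without any of 6, the MDA-MB-231 and MDA-MB-453 controls among them in both cases. Without all MDA-MB-453 libraries the values were 0.565 (adjusted p = 0.249) and 0.497 (adjusted p = 0.264). Both windows shown above hold TGAGTCA, 103 and 154 bases before the start.

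LINC00963 rose in all 3 lines. It lies at chr9:129483451-129513686 and had 0.820, 1.94 and 1.78 RPKM in the control, GSK343 and shEZH2 libraries of MDA-MB-231, 4.23, 6.22 and 6.33 in MDA-MB-436 and 1.77, 4.06 and 3.61 in MDA-MB-453. Its libraries held 181 to 1484 reads, and each targeted library was above the control of its line. The log2 fold change was 0.64 ± 0.26 for both interventions (adjusted p = 0.00584), 0.68 ± 0.30 under GSK343 (adjusted p = 0.0157) and 0.61 ± 0.30 under shEZH2 (adjusted p = 0.0192). Its call for both interventions held without any 1 library, from 0.563 to 0.727, and ended without all MDA-MB-453 libraries (adjusted p = 0.0959). The call under GSK343 ended without any of 3 single libraries and that under shEZH2 without any of 4.

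LINC01137 and LINC01293 were expressed in every control. LINC01137, typed antisense, had 1.45, 4.03 and 3.80 RPKM in MDA-MB-231, 1.62, 1.99 and 2.42 in MDA-MB-436 and 1.11, 3.22 and 3.75 in MDA-MB-453. All targeted libraries were above all controls, by least in MDA-MB-436 (log2 0.79 ± 0.34 for both interventions, adjusted p = 0.00758). Its call ended without the MDA-MB-453 control library (0.644, adjusted p = 0.0772) or all libraries of that line (adjusted p = 0.14). LINC01293 had 3.82, 11.3 and 4.41 RPKM in MDA-MB-231, 2.31, 5.05 and 3.64 in MDA-MB-436 and 4.07, 5.71 and 6.84 in MDA-MB-453. Its library under GSK343 in MDA-MB-231 stood above the other 8. It passed for both interventions (0.65 ± 0.41, adjusted p = 0.0345) and under GSK343 (0.88 ± 0.47, adjusted p = 0.031), and not under shEZH2 (0.43 ± 0.47, adjusted p = 0.213). The call for both ended without any of 5 single libraries, with values from 0.501 without that GSK343 library to 0.721 without the MDA-MB-453 control. The other 3 were the MDA-MB-231 control, the MDA-MB-436 control and the shEZH2 library of MDA-MB-453. The call of LINC01293 under GSK343 also ended without any of 5 single libraries. The values that follow are for both interventions. Without all MDA-MB-453 libraries it was also 0.721 (adjusted p = 0.0977).

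LINC01278 and LINC01270 each passed under 1 label. LINC01278, on the X chromosome, had 3.70, 5.91 and 4.98 RPKM in MDA-MB-231, 7.05, 11.7 and 11.1 in MDA-MB-436 and 5.68, 11.4 and 7.61 in MDA-MB-453. It passed under GSK343 (0.70 ± 0.31, adjusted p = 0.0145) and not under shEZH2 (0.43 ± 0.31, adjusted p = 0.0712). LINC01270 had 0.297, 0.562 and 0.944 RPKM in MDA-MB-231, 0.534, 1.30 and 1.30 in MDA-MB-436 and 0.474, 1.19 and 1.12 in MDA-MB-453. It passed under shEZH2 (0.56 ± 0.31, adjusted p = 0.0285) and not under GSK343 (0.48 ± 0.31, adjusted p = 0.063). The GSK343 call of LINC01278 ended without either of 2 single libraries, and the shEZH2 call of LINC01270 without any of 5. The difference between the labels passed for neither. LINC01270 was under 1 RPKM in every control and entered through the targeted libraries. Both passed for the 2 interventions together, and the further 6 members that passed there had log2 fold changes of 0.42 to 0.56. None of these 8 passed without the MDA-MB-453 libraries, with values from 0.272 to 0.536.

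**Figure D4:**
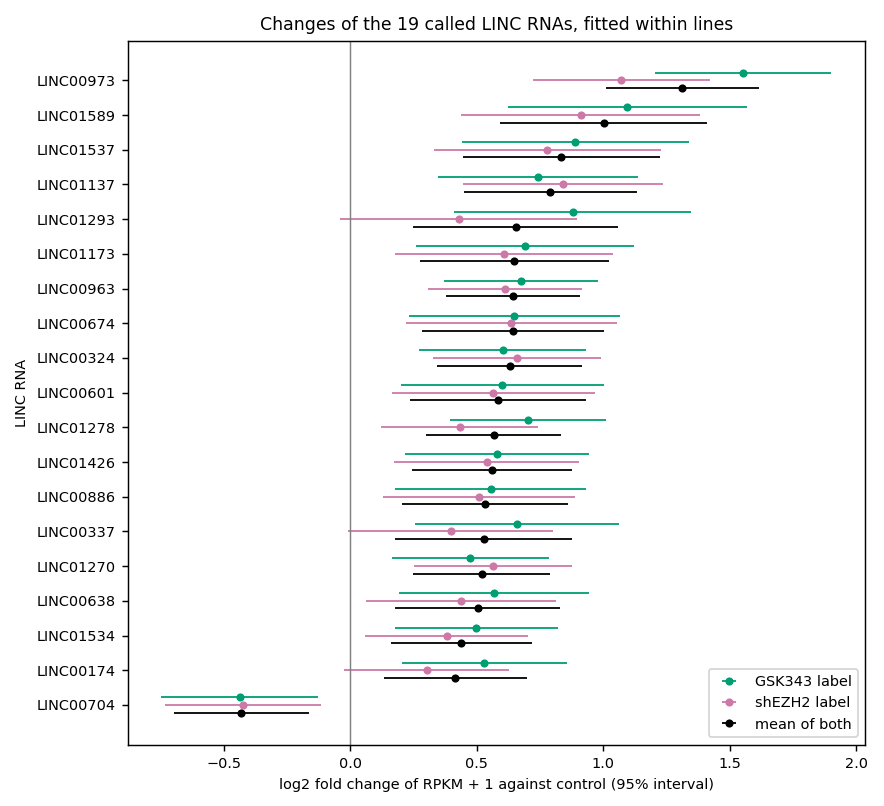
Log2 fold changes of RPKM + 1 against control with 95% intervals for the 19 members that passed for both interventions, under the GSK343 label (green), the shEZH2 label (pink) and for the mean of both (black). LINC00973 is farthest right at 1.31 for both, the green and pink intervals of every RNA overlap, and LINC00704 alone lies left of 0 at -0.43.

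The lower member was LINC00704, whose levels by line are given above. Its log2 fold change was -0.43 ± 0.27 for both interventions (adjusted p = 0.0345), and it was below the control in all 6 targeted libraries, as no other member was. In MDA-MB-436, where it was nearly absent, the difference rests on 7 reads in the control and 0 and 3 in the targeted libraries. Under the single labels it did not pass (-0.44 under GSK343, adjusted p = 0.0788, and -0.42 under shEZH2, adjusted p = 0.0761). Leaving out any of 7 single libraries ended the call, with values from -0.44 to -0.335, as did leaving out all MDA-MB-453 libraries (-0.335, adjusted p = 0.237). Among members with 1 sign in all 3 lines LINC00294 came next by p without passing, at -0.33 for both interventions (adjusted p = 0.109), with 7.55, 5.06 and 4.15 RPKM in the control, GSK343 and shEZH2 libraries of MDA-MB-436. LINC00511, LINC00960 and LINC00857 had the same sign in all lines in 1 contrast each and small values, between -0.19 and -0.05. LINC00472 (-0.40 ± 0.36, adjusted p = 0.114) and LINC00707 (-0.39 ± 0.42, adjusted p = 0.186) had lower values than LINC00294 without passing, but with opposite signs between lines.

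No member passed when the interventions were compared directly: 0 of 85 did in limma, as did 0% of all genes, and at an unadjusted p under 0.05 there were 3 members and 2.28% of all genes. LINC00973 was higher under GSK343 than under shEZH2 by 0.48 ± 0.35 on the log2 scale, with 59.0 against 34.8 RPKM in MDA-MB-231, 8.91 against 5.20 in MDA-MB-436 and 28.5 against 28.1 in MDA-MB-453. Its adjusted p was close to 1. LINC01116 (0.36 ± 0.34), LINC01291 (0.33 ± 0.33), LINC01278 (0.27 ± 0.31) and LINC00667 (0.26 ± 0.33) had the same sign in all 3 lines. In the other direction were LINC00471 (-0.15 ± 0.38) and LINC00540 (-0.09 ± 0.29). These intervals reach up to about the size of the changes against control, so they do not show that the interventions act alike.

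Whether the response differed between lines was tested with an F-test, with the 2 interventions as the replicates within a line. It passed for 0 of 85 members, against 0.0231% of all genes, and at an unadjusted p under 0.05 for 16 members (28.6% of all genes). The count of 0 depended on single libraries of MDA-MB-231, since it was 13 without the GSK343 library of that line and 12 without its shEZH2 library. It was also 6 without the whole line and 0 without the MDA-MB-453 libraries. LINC00707 had the smallest p among those whose lines moved in opposite directions. It had 1.75, 2.49 and 2.64 RPKM in the control, GSK343 and shEZH2 libraries of MDA-MB-231, 7.01, 3.64 and 3.82 in MDA-MB-436 and 5.98, 3.23 and 2.90 in MDA-MB-453. Both targeted libraries were thus above the control in the first line and below it in the others (F-test adjusted p = 0.08).

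The protein-coding genes nearest to the members were compared in the same way. For 84 located members the median distance to the nearest protein-coding start was 38527 bases, and 54 distinct neighbours were tested. Of these, 3 rose (5.56%) and 1 fell (1.85%) for both interventions, against 12.2% and 4.3% of all genes. Of the 18 risen members 16 had a tested neighbour, of which 2 rose and 1 fell. The third that rose was OGFRL1 (0.43 ± 0.27, adjusted p = 0.0356), which lies 131966 bases from LINC00472 on the opposite strand, while LINC00472 itself did not pass. DCBLD2, next to LINC00973, did not pass. None of the 4 called neighbours passed without the MDA-MB-453 libraries, and all 4 kept their sign.

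The clearest pair was LINC01137 and ZC3H12A, which encodes an endoribonuclease that degrades inflammatory messenger RNAs. The starts lie 141 bases apart on opposite strands. ZC3H12A had 9.40, 29.3 and 31.3 RPKM in the control, GSK343 and shEZH2 libraries of MDA-MB-231, 43.4, 54.2 and 63.7 in MDA-MB-436 and 15.6, 47.7 and 42.3 in MDA-MB-453. As for LINC01137, the rise was smallest in MDA-MB-436 (log2 1.16 ± 0.42, adjusted p = 0.00342, and 1.01 with adjusted p = 0.09 without MDA-MB-453). CEBPB, the gene of the transcription factor C/EBP beta, lies 101986 bases from LINC01270 and rose from 38.0 to 85.7 and 83.6 RPKM in MDA-MB-231, and from 56.7 to 111 and 119 in MDA-MB-453. Its RPKM in MDA-MB-436 was 160, 206 and 199 (0.83 ± 0.34, adjusted p = 0.00585, and 0.735 with adjusted p = 0.102 without MDA-MB-453). CEBPB is also the neighbour of LINC01273, only 18184 bases away, which did not pass (0.44, limma adjusted p = 0.0784). POLE4, which encodes a subunit of DNA polymerase epsilon and lies 18234 bases from LINC01293, fell (-0.42 ± 0.26, adjusted p = 0.0349, and -0.443 with adjusted p = 0.125 without MDA-MB-453) while LINC01293 rose. POLE4 is also the neighbour of LINC01291, 40344 bases away, which did not pass (0.29, limma adjusted p = 0.152).

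**Figure D5:**
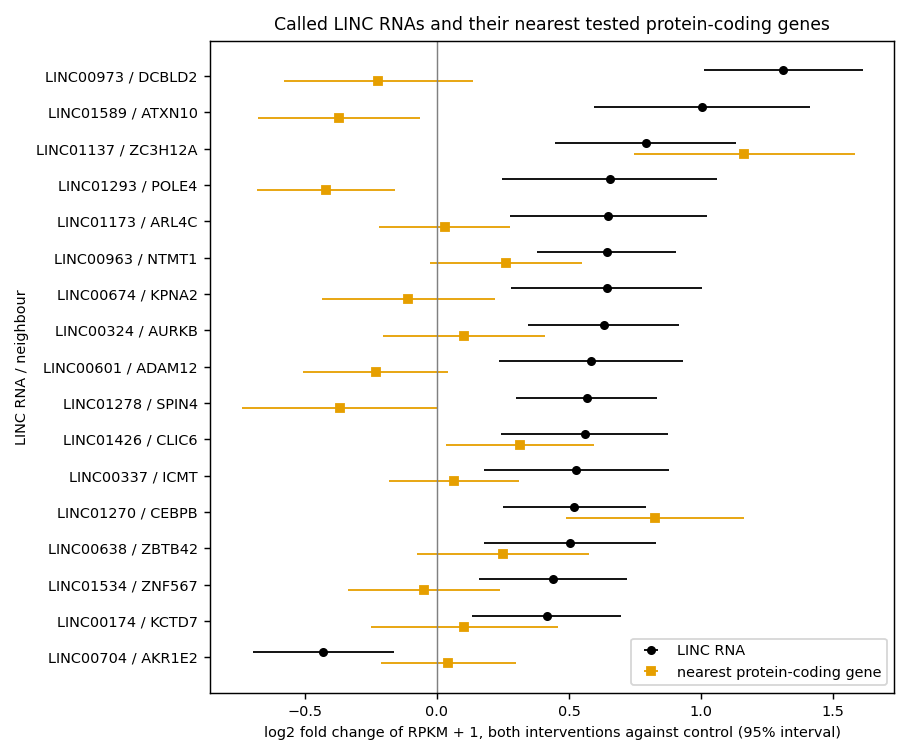
Log2 fold changes of RPKM + 1 for both interventions against control, with 95% intervals, for called members (black circles) and their nearest protein-coding genes where these were tested (orange squares). ZC3H12A at 1.16 and CEBPB at 0.83 lie right of 0 with their LINC RNAs, and POLE4 lies left of 0.

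For long noncoding RNAs without a LINC name, a list of 41 was used, of which 40 were in the table and 25 were tested. For both interventions 6 rose and 2 fell, beside 12.2% and 4.3% of all genes. Their median log2 fold change was 0.20, against 0.18 in the members and 0.05 over all genes tested. NEAT1, the scaffold of paraspeckles, had 3.12, 5.04 and 5.40 RPKM in MDA-MB-231, 5.31, 14.3 and 14.3 in MDA-MB-436 and 4.79, 9.10 and 9.65 in MDA-MB-453 (0.90 ± 0.30, adjusted p = 0.00209). MALAT1, a nuclear speckle RNA, rose by 0.65 ± 0.33 (adjusted p = 0.0143). UCA1, LUCAT1, SNHG12 and TINCR rose as well. DANCR (-0.58 ± 0.37, adjusted p = 0.0378) and MIR100HG (-0.54 ± 0.35, adjusted p = 0.042) fell. Without the MDA-MB-453 libraries none of the 8 passed, and all kept their sign, with NEAT1 at 0.936 (adjusted p = 0.0602).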

How the data were processed

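Gene expression was measured by RNA sequencing in 9 libraries, 1 per line and treatment. The authors deposited 1 table of RPKM, made with STAR and HTSeq on GRCh38 per the submitters' processing notes. The sources used here give no versions, annotation or strand setting. Multiplied by exon lengths of GENCODE release 29, low values were whole reads (100% within 0.05 of a read), which gave reads and depth. 68 members carry the same identifier version there. Intervals and limits from reads cover counting error only.

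The fit took genes that reached 1 RPKM in 3 of 9 libraries, on log2(RPKM + 1) with limma 3.58.1 (R 4.3.3, mean-variance trend), with treatment and line as terms and 4 residual degrees of freedom. P-values are two-sided and Benjamini-Hochberg adjusted over all 12965 genes, with a threshold of 0.05. Fold changes understate changes of low genes. The F-test used a mean per line in the control and targeted states. Lines are the replicates, so p measures only the spread between these libraries. The libraries labelled MDA-MB-453 count there as a line of their own, which was not tested. The pairing by line comes from the labels: centred values correlated at 0.358 to 0.953 within lines and -0.957 to 0.0903 between them.

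Named are members past the threshold (up to 10 per direction by size, filled to 5 with the smallest p where all lines have 1 sign), the 5 most different per line contrast and direction, the 10 most abundant, those at the edge of the rule, members with a described role, and neighbours. RNAs at 0 in 1 line (LINC00261 among them), members at 1 RPKM in a single line, and LINC00707 were named after their values were seen. Members and lists were chosen with earlier results of these data known. Alternatives were pseudocounts of 0.1 and 0.5, no filter, median-ratio rescaling, no trend, no replicate block, and leaving out each library or line. Values of neighbours and other long noncoding RNAs without MDA-MB-453 were added after the data were seen. In simulated data for both interventions against control (12965 genes), 86% of 2-fold and 47% of 1.5-fold changes were recovered, with 6 false calls among 139. These changes were added on the log2(RPKM + 1) scale, to genes with a mean above 1 on it, with independent noise in every library. The rates therefore do not cover weaker members or a dependence of the MDA-MB-453 libraries on the other lines. Promoters come from RefSeq (GRCh38.p14).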

Additional observations from a re-analysis of the deposited data

Results flagged for a closer look

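For 24 members both targeted libraries of 1 line moved one way from its control and both of another line moved the opposite way. The 8 of these with an unadjusted F-test p under 0.05 are given here. The F-test of the difference between lines passed for none of them after adjustment over all genes (3 of 12965 genes passed). An unadjusted p under 0.05 was found for 18.8% of members and 28.6% of all genes. How many of all genes have opposite directions between lines was not counted, so neither 24 nor 8 sets these RNAs apart. Values below are mean log2 differences of RPKM + 1 between the targeted libraries and the control, for MDA-MB-231 first, then MDA-MB-436, then MDA-MB-453. LINC00707 had 0.38, -0.76 and -0.78 (adjusted p = 0.08). LINC01003 had -0.75, 0.28 and 0.27 (adjusted p = 0.094), with 3.35 RPKM in the MDA-MB-231 control against 1.65 and 1.52 under GSK343 and shEZH2. LINC00116, the mitoregulin gene, had -0.24, -0.24 and 0.70 (adjusted p = 0.094), and its MDA-MB-453 control, at 4.78 RPKM, was the lowest of the 9 libraries. LINC00630 had -0.00, 0.62 and -0.16 (adjusted p = 0.133). LINC01605 had -0.27, 0.88 and 0.31 (adjusted p = 0.14). LINC00623 had 0.48, -0.26 and 0.31 (adjusted p = 0.143). LINC00472 had -0.75, 0.16 and -0.63 (adjusted p = 0.157). LINC01444 had -0.36, 0.51 and 0.26 (adjusted p = 0.175).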

How the results depend on the processing

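Pseudocounts of 0.1 or 0.5 and moderation without the trend ended none of the 26 calls of named members (a member counts once per treatment contrast), and median-ratio rescaling ended 3. With no filter on low values 25 of the 26 were lost, and the counts of members called were 0 for GSK343, 0 for shEZH2 and 1 for both interventions. They were 12 for MDA-MB-453 against MDA-MB-231, 19 for MDA-MB-453 against MDA-MB-436 and 1 for the response between lines. More genes enter both the fit and the adjustment in that setting, and why the calls were lost was not tested. With no replicate block, which ignores the pairing by line, 0, 0 and 0 members were called for GSK343, shEZH2 and both interventions (2, 2 and 3 of all genes). Leaving out 1 library or 1 line at a time, the counts ranged from 1 to 15 for GSK343, 0 to 12 for shEZH2, 1 to 17 for both interventions, 53 to 60 for MDA-MB-436 against MDA-MB-231, 20 to 34 for MDA-MB-453 against MDA-MB-231, 20 to 37 for MDA-MB-453 against MDA-MB-436 and 0 to 13 for the response between lines. The direct comparison of the interventions called 0 members throughout. The MDA-MB-453 libraries weighed most: without them 24 of the 26 calls were lost, and 20 without their control alone. The response between lines reached 13 members without the GSK343 library of MDA-MB-231 and 12 without its shEZH2 library. LINC00857, which did not pass, (-0.06 under shEZH2), ranged from -0.157 without the control of MDA-MB-231 to 9.87e-05 without the shEZH2 library of that line. Causes were not tested. With 1 library per line and condition, calls for members under 1 RPKM rest on few reads.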
